A study of Mus musculus with 6 samples.

Results

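The genes described here carry out glycerol phosphate supply and triglyceride assembly, and were followed by RNA sequencing in cultured mouse adipocytes from 3 fat depots. They were named for their place in the pathway and not by a cut on a measured value, but earlier results of these data were known. The set held Pck1, Gyk, Gpd1 and Gpd2 for glycerol phosphate, and Gpam, Agpat2, Lpin1, Dgat1 and Dgat2 for assembly. All 9 were found among the 20295 genes of the count table, glycerol kinase under its older symbol Gyk (Gk in RefSeq), and all 9 were among the 11732 genes that passed the filter on low counts.

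Adipocytes were differentiated in culture from stromal-vascular cells, the mixed cells that collagenase frees from fat once mature adipocytes are removed, with 2 libraries each from brown fat (BAT), inguinal white fat (iWAT) and epididymal white fat (eWAT). The donors of all cultures were male NMRI mice aged 4 to 5 weeks, and BAT was a pool of the interscapular, cervical and axillary depots. All groups, with no untreated or undifferentiated group among them, were grown with insulin at 30 nM, rosiglitazone (an agonist of the nuclear receptor Pparg) at 1 µM and newborn calf serum at 10%, and harvested on day 8 after plating (the library tags carry day 7). Cultures had to be more than 50% differentiated, so up to that share of other stromal cells could remain, and nothing in the labels ties the 2 libraries of a depot to separate animals or cultures. The p-values therefore measure the spread between these libraries, which may be technical.

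A triglyceride is built on glycerol 3-phosphate. Fat cells make little of it from free glycerol in classical accounts, and draw it instead from glycolysis or, through phosphoenolpyruvate carboxykinase, from lactate and amino acids (glyceroneogenesis). Acyl groups are then added stepwise by GPAT and AGPAT enzymes, the phosphate is removed by lipins, and a DGAT enzyme adds the last acyl group. In brown fat the same glycerol 3-phosphate also feeds a shuttle in which the mitochondrial dehydrogenase Gpd2 passes electrons to the respiratory chain.

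Total counts ran from 2889038 to 4807449 per library, and the 9 genes together took 0.903% to 1.61% of them. The summed level of 10 general adipocyte genes (Fabp4, Adipoq, Plin1 and others) was 40170 to 53399 CPM (read counts scaled to a common library total with trimmed-mean factors) in BAT, 33405 to 34820 in iWAT and 30666 to 35959 in eWAT, and none of the 10 passed the test between any 2 depots. The brown fat uncoupling protein gene Ucp1 had 4924 and 9294 CPM in BAT, 1114 and 995 CPM in iWAT, and 59.6 and 62.9 CPM in eWAT. Markers of other cells differed between the cultures. The sum of 10 macrophage markers was 437 and 94.8 CPM in BAT, 648 and 189 CPM in iWAT, and 4760 and 2103 CPM in eWAT, with none of the 10 at 0 in any depot, and 6 of them were lower in BAT than in eWAT (median log2 difference -3.64). The sum of 10 preadipocyte and fibroblast markers was 2822 to 3832 CPM in BAT, 19154 to 20458 in iWAT and 16569 to 18139 in eWAT; 4 of the 9 tested (Pdgfra, Ly6a, Dcn and Col3a1) were lower in BAT in both contrasts with white depots, and Thy1 was higher in BAT than in eWAT. In these bulk samples fewer cells of a type and less RNA per cell cannot be told apart, and the part of such cells in the results was not tested.

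Between BAT and eWAT cultures, 4 of the 9 genes passed the test. Pck1, Gyk and Gpd2, which supply or oxidise glycerol phosphate, were 2.45 to 4.43 times as high in BAT, and Gpam, the first acyltransferase of the assembly line, was 2.21 times lower. The other 4 assembly genes and Gpd1 did not pass in this model, which had depot as its only term. Lpin1 and Dgat1 passed once equal library numbers were added as a block. The test was edgeR's quasi-likelihood F test on all 6 libraries, adjusted by Benjamini-Hochberg over the 11732 genes, with a call at an adjusted p below 0.05. It called 6.46% of all genes in that contrast, of which 2.71% were higher and 3.75% lower in BAT. For BAT against iWAT the test called 1.04% of all genes (0.145% higher and 0.895% lower in BAT) and 0 of the 9; for iWAT against eWAT it called 0% of all genes and 0 of the 9. An unadjusted edgeR p below 0.05 was reached by 4 of the 9 in BAT against iWAT and by 1 of the 9 in iWAT against eWAT. The same was reached by 1951 and 1096 of all 11732 genes. DESeq2 called 3 of the 9 (Gpd2, Gyk and Pck1) in BAT against iWAT and 0 in iWAT against eWAT, and limma voom called 0 in both. Over all genes, DESeq2 called 487 and 280 in these contrasts, and limma voom 69 and 1.

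**Figure D1:**
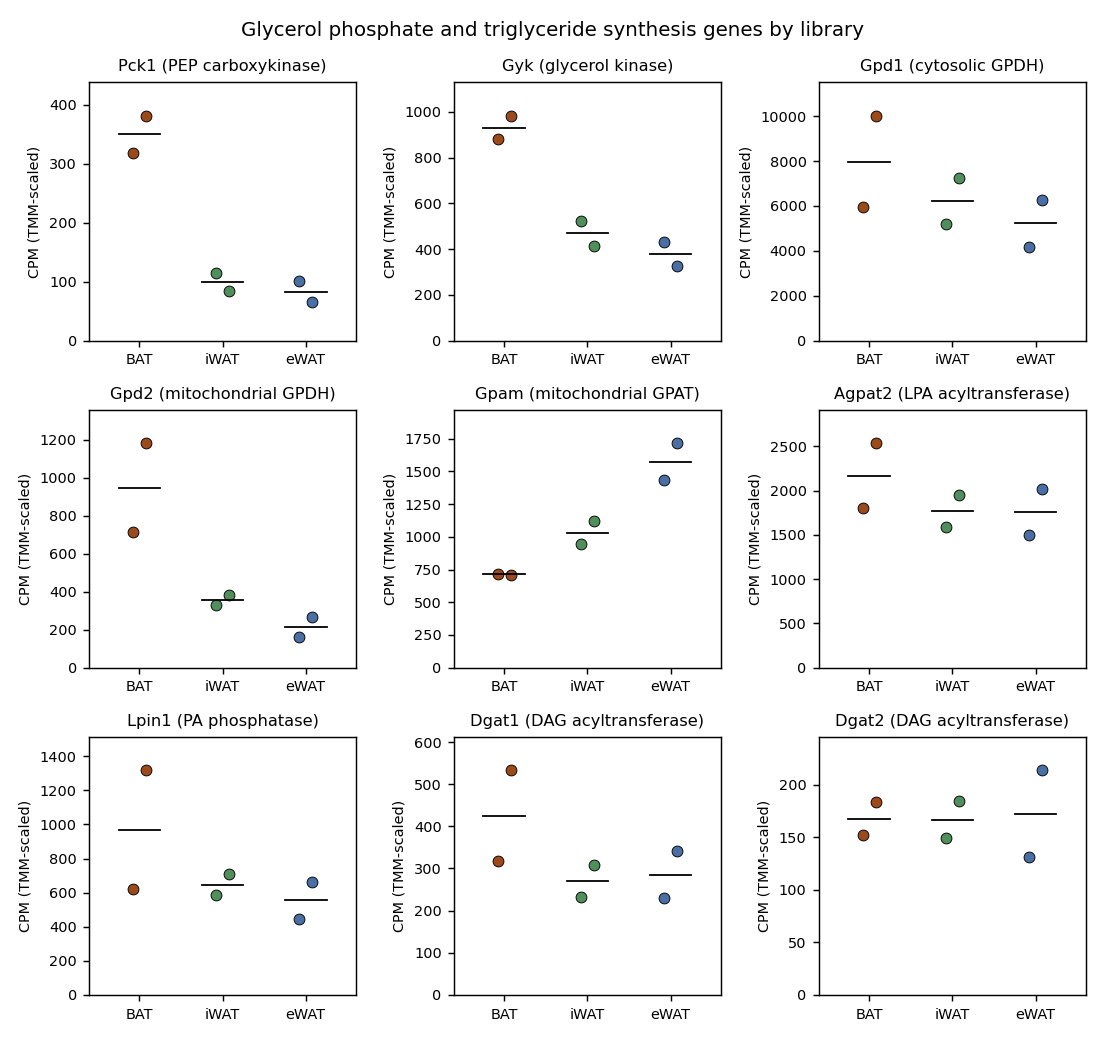
Level of each of the 9 genes in CPM (linear axes from 0, a different scale in each panel) in the 6 libraries, with BAT, iWAT and eWAT from left to right; each point is a library and each bar the mean of the 2 libraries of a depot. Pck1, Gyk and Gpd2 stand higher in both BAT libraries than in any other library, Gpam is lowest there, and Dgat2 lies between 131 and 214 CPM in all 6.

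Pck1, the cytosolic phosphoenolpyruvate carboxykinase that sets the pace of glyceroneogenesis, had 318.9 and 380.8 CPM in BAT, 115.0 and 83.5 CPM in iWAT, and 101.3 and 64.6 CPM in eWAT. Both BAT libraries were far above the 4 white fat libraries, and iWAT and eWAT overlapped. The log2 difference was 2.07 ± 0.29 for BAT minus eWAT (SE; 95% interval 1.38 to 2.77, adjusted p = 0.0231 by edgeR), a 4.21-fold level. For BAT minus iWAT it was 1.82 ± 0.28 (95% interval 1.13 to 2.50), with an edgeR adjusted p of 0.0512, just outside the threshold. Other scalings put that adjusted p at 0.0496 (size factors of the DESeq2 type) and 0.0488 (upper quartile). DESeq2 called Pck1 in this contrast and limma voom did not, so the call depended on the method. With each library left out in turn, the log2 difference for BAT minus iWAT ran from 1.61 to 2.07. The rise of Pck1 in BAT exceeded that of the summed adipocyte genes. The mean of that sum in BAT was 1.37 times that in iWAT and 1.40 times that in eWAT. Much of the sum came from Fabp4 (25312 of 40170 CPM in BAT library 1). The median log2 difference of the 10 adipocyte genes was -0.08 for BAT minus eWAT and 0.20 for BAT minus iWAT. The part of adipocyte content in the level of Pck1 was not tested.

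Gyk, the glycerol kinase that phosphorylates free glycerol, had 881.2 and 981.9 CPM in BAT, 522.5 and 414.3 CPM in iWAT, and 432.1 and 327.9 CPM in eWAT. The lowest BAT library stood above every white fat library, and no white fat library was without the transcript. The log2 difference was 1.29 ± 0.23 for BAT minus eWAT (95% interval 0.74 to 1.85, edgeR adjusted p = 0.0348) and 0.99 ± 0.23 for BAT minus iWAT (edgeR adjusted p = 0.125), where it did not pass. Its near copies Gykl1 and Gk2 had 0 and 2 counts over all 6 libraries.

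The pair of glycerol 3-phosphate dehydrogenases differed in pattern. Gpd1, the cytosolic enzyme that makes glycerol 3-phosphate from a glycolytic intermediate, had 5934 and 10011 CPM in BAT, 5205 and 7230 CPM in iWAT, and 4171 and 6288 CPM in eWAT. Those ranges overlapped, and the log2 difference for BAT minus eWAT was 0.61 ± 0.38 (95% interval -0.32 to 1.54, edgeR adjusted p = 0.375). Gpd2, its mitochondrial counterpart, had 714.9 and 1182 CPM in BAT, 332.2 and 381.1 CPM in iWAT, and 162.1 and 265.6 CPM in eWAT. The depots did not overlap, with BAT highest and eWAT lowest. The log2 difference of Gpd2 was 2.15 ± 0.35 for BAT minus eWAT (95% interval 1.31 to 2.99, 4.43-fold, edgeR adjusted p = 0.0303), 1.41 ± 0.34 for BAT minus iWAT (edgeR adjusted p = 0.133) and 0.74 ± 0.33 for iWAT minus eWAT (edgeR adjusted p = 0.608).

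Gpam, the mitochondrial GPAT that adds the first acyl group, had 716.8 and 707.8 CPM in BAT, 943.7 and 1122 CPM in iWAT, and 1435 and 1716 CPM in eWAT. Again the 3 depots did not overlap, in the opposite order to Gpd2. Its log2 difference was -1.15 ± 0.21 for BAT minus eWAT (95% interval -1.65 to -0.64, edgeR adjusted p = 0.0368), -0.54 ± 0.21 for BAT minus iWAT (edgeR adjusted p = 0.278) and -0.61 ± 0.21 for iWAT minus eWAT (unadjusted p = 0.025, edgeR adjusted p = 0.398). The macrophage marker sum was also highest in eWAT. The macrophage sums of BAT libraries 1 and 2 were 437 and 94.8 CPM, with Gpam at 716.8 and 707.8 CPM. Those of iWAT libraries 1 and 2 were 648 and 189 CPM, with Gpam at 943.7 and 1122 CPM. In eWAT libraries 1 and 2 they were 4760 and 2103 CPM, with Gpam at 1435 and 1716 CPM. The part of macrophage content in the level of Gpam was not tested.

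The 4 calls between BAT and eWAT depended on single libraries, while the 4 directions did not. Without BAT library 1 only Pck1, Gyk and Gpd2 passed, and without BAT library 2, eWAT library 1 or eWAT library 2 none of the 9 did. Without either iWAT library, which lowers the number of libraries behind the error estimate, Pck1 alone passed. Over these omissions the log2 difference ran from 1.79 to 2.44 for Pck1, 1.11 to 1.51 for Gyk, 1.74 to 2.55 for Gpd2 and -1.26 to -1.005 for Gpam. In the authors' deposited table, 6 of the 9 genes had an adjusted p below 0.05 for BAT against eWAT (these 4, Lpin1 and Gpd1). It had 3 of them for BAT against iWAT (Gpd2, Gyk and Pck1) and 2 for iWAT against eWAT (Gpam and Gpd2). The share of all genes below 0.05 in the authors' table was not counted, so these numbers have no background beside them. For the 9 genes, the authors' log2 fold changes lay within 0.132 of those given here.

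**Figure D2:**
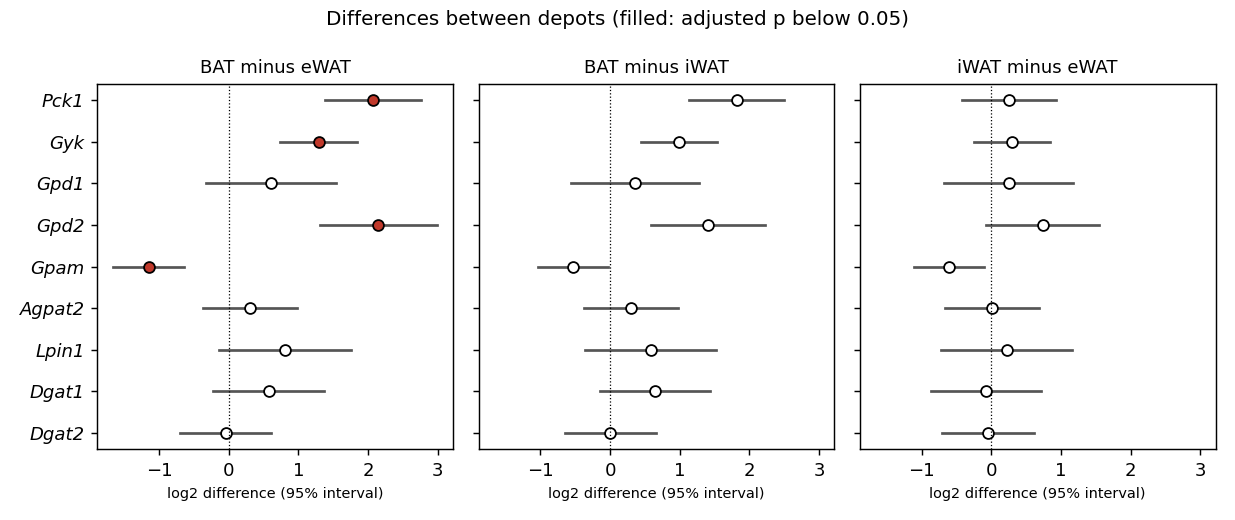
Log2 difference of each of the 9 genes in the contrasts BAT minus eWAT, BAT minus iWAT and iWAT minus eWAT; points are edgeR estimates, bars unadjusted 95% intervals, and filled points passed at an adjusted p below 0.05. Filled points appear only for Pck1, Gyk, Gpd2 and Gpam in BAT minus eWAT, and the open point of Pck1 in BAT minus iWAT has an interval (1.13 to 2.50) that lies above 0.

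In the mouse build mm9 used by the files, Pck1 (NM_011044) lies on chromosome 2 from 172978574 to 172984754 on the plus strand and Gpd2 (NM_001145820) on chromosome 2 from 57090089 to 57223130 on the plus strand. Gyk (NM_008194) lies on chromosome X from 82947276 to 83022158 and Gpam (NM_008149) on chromosome 19 from 55144224 to 55173937, both on the minus strand. No other gene of the table overlapped any of the 9. Promoters of Pck1, Gyk and Gpam are shown, as called genes whose windows held a searched motif; the 2 windows of Gpd2, the fourth called gene, held none and are not printed. RefSeq sequences of build GRCm38.p6, whose coordinates are not those of mm9, were at hand for 6 of the 9 genes, with 8 windows. Each covers the 250 bases before a start site and is written 5′ to 3′ on the gene's strand, with motif matches in capitals. The Pck1 window is chr2:173152823-173153072 (plus), the Gyk window chrX:85776820-85777069 (minus), and Gpam has 2 windows, chr19:55127239-55127488 and chr19:55099478-55099727 (both minus).
Pck1 promoter: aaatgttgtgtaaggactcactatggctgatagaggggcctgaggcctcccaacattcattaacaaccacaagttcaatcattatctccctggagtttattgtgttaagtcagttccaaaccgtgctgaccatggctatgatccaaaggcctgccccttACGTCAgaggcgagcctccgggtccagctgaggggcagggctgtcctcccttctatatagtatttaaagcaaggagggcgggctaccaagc
Gyk promoter: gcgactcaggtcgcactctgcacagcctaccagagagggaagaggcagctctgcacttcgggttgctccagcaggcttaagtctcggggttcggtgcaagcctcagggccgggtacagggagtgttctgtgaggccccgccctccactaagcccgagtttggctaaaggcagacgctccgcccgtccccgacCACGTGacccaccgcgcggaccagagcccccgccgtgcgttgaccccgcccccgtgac
Gpam promoter, first window: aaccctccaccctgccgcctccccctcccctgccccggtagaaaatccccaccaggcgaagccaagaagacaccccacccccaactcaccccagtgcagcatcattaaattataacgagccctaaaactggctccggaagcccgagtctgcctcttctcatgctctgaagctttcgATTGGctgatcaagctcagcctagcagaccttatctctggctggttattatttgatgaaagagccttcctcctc
Gpam promoter, second window: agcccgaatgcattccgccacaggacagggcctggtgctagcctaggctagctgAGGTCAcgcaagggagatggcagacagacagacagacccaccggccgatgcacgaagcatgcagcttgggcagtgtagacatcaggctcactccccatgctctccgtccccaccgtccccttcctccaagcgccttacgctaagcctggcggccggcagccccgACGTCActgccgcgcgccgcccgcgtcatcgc

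Each window was searched on both strands for 5 letter strings: ACGTCA (the core of the cAMP response element), CACGTG (an E-box), AGGTCA (a nuclear receptor element), CCAAT and TATAAA. None of these strings contains another. The Pck1 window held ACGTCA starting 91 bases before the start site, a string found in 6.47% of all 32851 promoter windows. The Gyk window held CACGTG at 58 bases, a string found in 6.02% of windows. The first Gpam window held CCAAT on the opposite strand (read as ATTGG above) at 74 bases, found in 33.8% of windows. The second held AGGTCA at 196 bases (14% of windows) and ACGTCA at 32 bases. The Lpin1 window held AGGTCA at 74 bases, and the Gpd2 and Agpat2 windows held none of the 5 strings. TATAAA, found in 12.4% of all windows, was in none of the 8.

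With depot as the only term, none of the genes of the later assembly steps passed between any 2 depots. With equal library numbers added as a block, Lpin1 and Dgat1 passed for BAT minus eWAT (edgeR adjusted p = 0.0407 and 0.034). Dgat1 then also passed for BAT minus iWAT (edgeR adjusted p = 0.0423). The labels give equal numbers no shared origin. Agpat2, the AGPAT of fat cells that makes phosphatidic acid, had 1803 and 2535 CPM in BAT, 1585 and 1948 CPM in iWAT, and 1504 and 2015 CPM in eWAT. Its depots overlapped, with a log2 difference of 0.30 ± 0.28 for BAT minus eWAT (95% interval -0.37 to 0.98, edgeR adjusted p = 0.551). Lpin1, the lipin that removes the phosphate and also acts as a transcriptional coactivator, had 620.7 and 1317 CPM in BAT, 586.0 and 706.9 CPM in iWAT, and 445.9 and 664.4 CPM in eWAT. BAT library 2 alone stood apart there, though library 2 was above library 1 in all 3 depots. The log2 difference of Lpin1 for BAT minus eWAT was 0.80 ± 0.39 (95% interval -0.14 to 1.75, edgeR adjusted p = 0.259). The interval allows a rise of up to 3.37-fold.

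Dgat1 and Dgat2 encode unrelated enzymes that both add the last acyl group. Dgat1 had 316.8 and 533.0 CPM in BAT, 232.9 and 308.5 CPM in iWAT, and 229.7 and 341.0 CPM in eWAT. Its log2 difference was 0.57 ± 0.33 for BAT minus eWAT (95% interval -0.22 to 1.37, edgeR adjusted p = 0.327) and 0.65 ± 0.33 for BAT minus iWAT (edgeR adjusted p = 0.381). Dgat2 had 151.7 and 183.5 CPM in BAT, 149.1 and 184.5 CPM in iWAT, and 131.4 and 213.6 CPM in eWAT. The 2 libraries of each depot differed more than the depot means did. The log2 difference of Dgat2 was -0.04 ± 0.27 for BAT minus eWAT (95% interval -0.70 to 0.61, edgeR adjusted p = 0.942), so a rise of up to 1.53-fold in BAT lies within the interval.

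Over all 9 genes the median log2 difference between BAT and eWAT was 0.61, beside -0.03 over all genes tested. Between BAT and iWAT it was 0.58, beside -0.02, and between iWAT and eWAT it was 0.22, beside 0.01. The libraries of the 2 depots did not overlap for 4 of the 9 genes in BAT against eWAT, 5 in BAT against iWAT and 2 in iWAT against eWAT. The same held for 55.2%, 48% and 38% of all genes tested, so the shares among the 9 lay near or below the background. The 3 contrasts share libraries and are not independent of each other.

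Per kilobase of counted transcript, the order of the mean levels over 6 libraries was Gpd1 (2324 CPM per kb), Agpat2 (1206), Gpam (289), Dgat1 (186), Gyk (137), Lpin1 (132), Gpd2 (88.1), Dgat2 (75.1) and Pck1 (67.8). By that per-length level Gpd1 was above 99.94% of the tested genes in BAT, 99.93% in iWAT and 99.88% in eWAT. The level of Pck1 was above 95.5% of them in BAT, 83.3% in iWAT and 80.2% in eWAT, and that of Gpd2 above 96.4%, 89.8% and 83.2%.

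Ratios between genes within a library do not depend on the scaling of that library. Per length and per 100 of Gpd1, Gpd2 stood at 5.84 and 5.72 in BAT, 3.09 and 2.56 in iWAT, and 1.88 and 2.05 in eWAT, with no overlap between depots. Per 100 of Gpam, Gyk stood at 108 and 122 in BAT, 48.8 and 32.6 in iWAT, and 26.6 and 16.9 in eWAT. Glycerol kinase transcript thus exceeded that of Gpam per length in both BAT libraries and in no white fat library. The lower Gpam level in BAT is part of this ratio. Per 100 of Gpd1, Gyk stood at 9.53 and 6.29 in BAT, 6.44 and 3.68 in iWAT, and 6.65 and 3.35 in eWAT. With Gpd1 as the base, BAT thus overlapped both white depots. Per 100 of Gpam, Gpd2 stood at 66.5 and 111 in BAT, 23.5 and 22.6 in iWAT, and 7.53 and 10.3 in eWAT. Per 100 of Pck1, Gyk stood lower in BAT (167 and 155) than in iWAT (274 and 299) or eWAT (257 and 306). Per 100 of Dgat1, Dgat2 stood at 37.3 and 26.8 in BAT, 49.9 and 46.6 in iWAT, and 44.6 and 48.8 in eWAT. These ratios are descriptions, with 2 libraries a depot and no test.

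**Figure D3:**
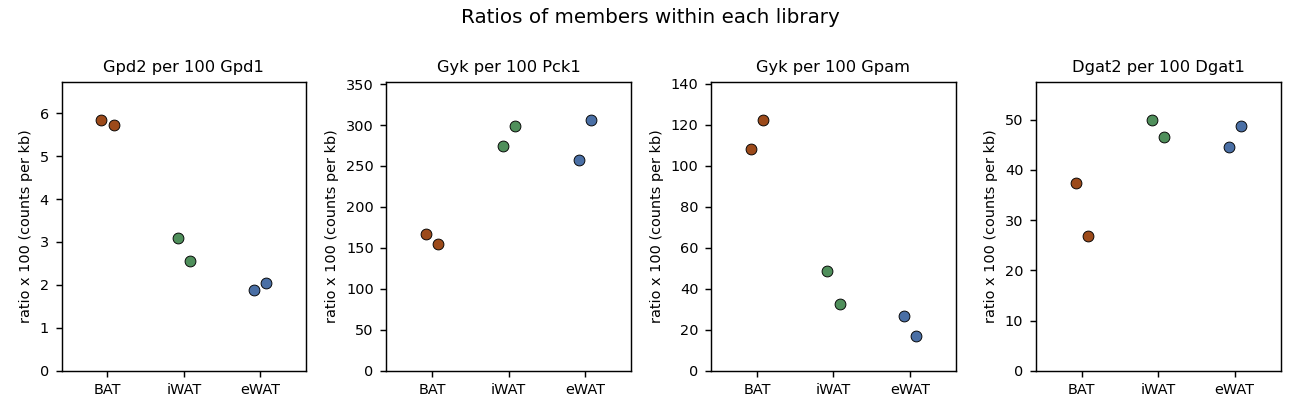
Ratios of transcript levels per kilobase, multiplied by 100, in each library of BAT, iWAT and eWAT (left to right in each panel); each point is a library. The Gpd2 to Gpd1 ratio is highest in BAT (5.84 and 5.72) and lowest in eWAT (1.88 and 2.05), and the Gyk to Gpam ratio exceeds 100 only in BAT.

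For several steps other genes encode the same activity. Among the GPAT genes, Gpam made up 58.9% and 48.5% of the summed per-length level in BAT, 66.8% and 68.6% in iWAT, and 69.7% and 67.2% in eWAT. Agpat6, which encodes the endoplasmic reticulum enzyme GPAT4, made up 11.7% and 24.3% in BAT, 7.25% and 7.17% in iWAT, and 6.49% and 6.46% in eWAT. Agpat6 had 146 and 366 CPM in BAT, so its share in BAT rests in part on library 2, and it did not pass the test (0.73 ± 0.41 for BAT minus eWAT, edgeR adjusted p = 0.317). Agpat9, which encodes GPAT3, held 23.8% to 29.3% in all libraries and did not pass (-0.63 ± 0.21 for BAT minus eWAT, edgeR adjusted p = 0.124). The summed GPAT level averaged 350 ± 44.9 CPM per kb in BAT (SD, n = 2), 398 ± 41.0 in iWAT and 602 ± 91.0 in eWAT.

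Pck1 made up 91.0% and 92.6% of the summed level of the cytosolic and mitochondrial carboxykinase genes in BAT, 74.7% and 61.7% in iWAT, and 76.4% and 67.2% in eWAT. The mitochondrial gene Pck2 itself did not pass (-0.03 ± 0.20 for BAT minus eWAT, edgeR adjusted p = 0.95). At the other steps most of the level came from 1 gene in every library. Dgat1 held 66.7% to 78.8% of the DGAT level. Agpat2 held 89.0% to 90.8% of the AGPAT level, Lpin1 89.9% to 97.5% of the lipin level and Gpd1 98.6% to 99.4% of the cytosolic dehydrogenase level.

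**Figure D4:**
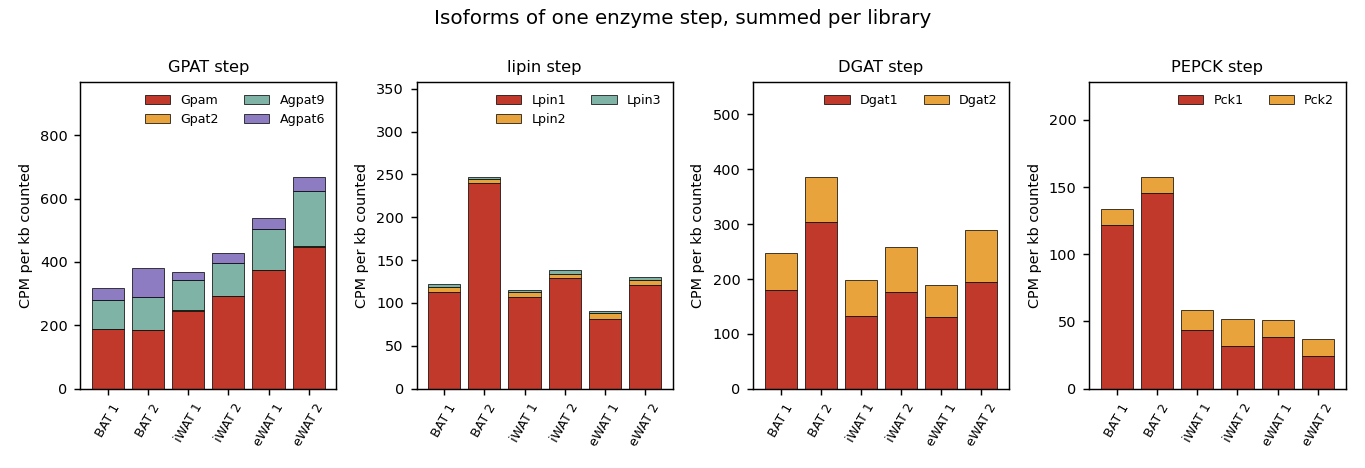
Level in CPM per kilobase of each gene that encodes the GPAT, lipin, DGAT or carboxykinase (PEPCK) step, stacked for each library, with BAT, iWAT and eWAT from left to right. Pck1 makes up more of the carboxykinase bar in BAT (91.0% and 92.6%) than elsewhere, and Gpam less of the GPAT bar (58.9% and 48.5%).

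Genes that act beside the 9 were read from lists of their own. Between BAT and eWAT the test called 5 genes of these lists together, beside 6.46% of all genes tested. No list was tested as a set, and the calls are given gene by gene. Of 14 tested genes of feeder steps, 2 were higher in BAT than in eWAT, 0 lower, and the list's median log2 difference was 0.61. The list held glycolytic genes, a glycerol channel, and enzymes and mitochondrial carriers of oxaloacetate, malate, aspartate and citrate. Aqp7, the glycerol channel of adipocytes, had 174 and 246 CPM in BAT against 71.3 and 97.8 CPM in eWAT (1.31 ± 0.25, edgeR adjusted p = 0.0373). Pgk1, a glycolytic kinase, has near-identical pseudogene copies and so an uncertain count. It had 48.4 and 57.7 CPM in BAT against 14.7 and 18.5 CPM in eWAT (1.68 ± 0.21, edgeR adjusted p = 0.0209). Gapdh, Pgam1 and Eno1, other glycolytic genes of the list, were low in all 3 depots. Over the 6 libraries Gapdh ran from 2.89 to 6.50 CPM, Pgam1 from 8.85 to 14.0 CPM and Eno1 from 0.481 to 7.65 CPM. Aldoa had 2290 and 3035 CPM in BAT. Whether the low counts are uncertain in the same way was not tested. Slc25a10, the mitochondrial dicarboxylate carrier, lay lower in BAT without passing (-1.25 ± 0.32, edgeR adjusted p = 0.0698).

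Of 7 tested genes that supply acyl-CoA, 1 fell in BAT relative to eWAT, and the list's median log2 difference was -0.01. That gene was Slc27a1, which encodes the fatty acid transport protein FATP1. It had 75.2 and 46.6 CPM in BAT, 488 and 434 CPM in iWAT, and 528 and 632 CPM in eWAT. The BAT libraries were far below all others, and the log2 difference was -3.24 ± 0.28 for BAT minus eWAT (edgeR adjusted p = 0.0103) and -2.91 ± 0.28 for BAT minus iWAT (edgeR adjusted p = 0.0165). It was the only gene of these related lists to pass between BAT and iWAT, and it passed between BAT and eWAT under all 13 alternatives tried. The call between BAT and iWAT was lost without BAT library 2, iWAT library 1 or iWAT library 2 (edgeR adjusted p = 0.0839, 0.0905 and 0.112).

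Of 13 tested other isoforms of the 9 genes and of 7 tested lipid droplet and storage partners (Plin1, Cidec, Bscl2 and others), none passed between BAT and eWAT by edgeR. The medians were 0.09 and -0.34, and 1 and 0 genes had an unadjusted p below 0.05. The smallest adjusted p among the storage partners was 0.327, that of Cidec, a droplet fusion protein (-0.40 ± 0.23). Of 16 tested genes of the phospholipid branch, which draws on the same phosphatidic acid and diacylglycerol, 1 was higher and 0 lower, with a median of -0.02. It was Pcyt2, the rate-limiting enzyme of phosphatidylethanolamine synthesis from ethanolamine, with 167 and 234 CPM in BAT against 78.0 and 89.6 CPM in eWAT (1.26 ± 0.22, edgeR adjusted p = 0.0327).

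Of 12 tested transcriptional regulators of lipogenesis, 1 had a lower level in BAT than eWAT and 0 a higher one, with a median log2 difference of 0.17. Rxra, the partner receptor of Pparg, had 47.8 and 51.6 CPM in BAT against 93.4 and 94.1 CPM in eWAT (-0.92 ± 0.16, edgeR adjusted p = 0.0329). Pparg itself had 395 and 531 CPM in BAT against 168 and 264 CPM in eWAT (1.10 ± 0.28), which did not pass (edgeR adjusted p = 0.0689). Srebf1, the sterol response factor known to act on Gpam, had 298 and 500 CPM in BAT against 406 and 611 CPM in eWAT, with overlapping libraries (-0.35 ± 0.33, edgeR adjusted p = 0.558). The calls of Aqp7, Pcyt2 and Rxra were lost without BAT library 2 (adjusted p = 0.14, 0.113 and 0.116), and those of all 3 without either library of iWAT or of eWAT (adjusted p from 0.067 to 0.183). Rxra also lost its call without BAT library 1 (0.0679), and Pgk1 lost its call without BAT library 2, iWAT library 2 or either eWAT library (0.0511 to 0.0945). None of the related genes passed between iWAT and eWAT by edgeR, where DESeq2 called 1 of them. The smallest adjusted p of each list there belonged to Mogat1 (0.205), Pgk1 (0.138), Acsl3 (0.733), Bscl2 (0.861), Dgkz (0.237) and Nr3c1 (0.767). Between BAT and iWAT it was that of Agpat6 (0.242), Aqp7 (0.216), Fitm2 (0.434), Pcyt2 (0.12) and Rxra (0.112), beside the called Slc27a1.

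**Figure D5:**
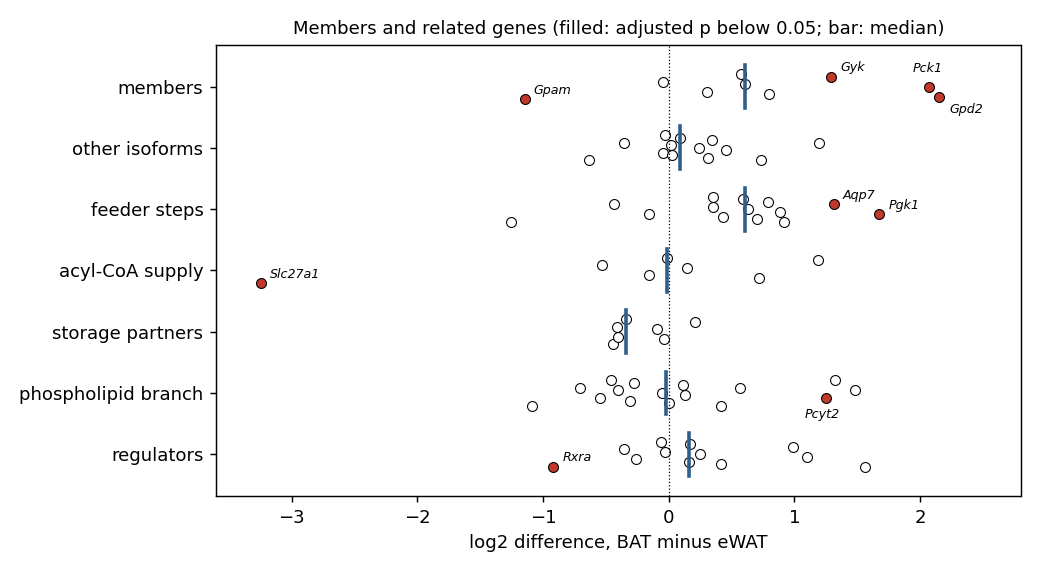
Log2 difference for BAT minus eWAT of the 9 genes (top row) and of the tested genes of 6 related lists; each point is a gene, filled where it passed at an adjusted p below 0.05, and each bar is the list's median. The medians of the 9 genes and of the feeder steps (both 0.61) lie to the right of the other lists, and Slc27a1 (-3.24) lies far to the left.

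Gpd2 had the widest range of depot means among the 9 genes. Over 6 libraries, the genes whose log2 level tracked it most closely among 8937 ranked were Mrpl32 (Pearson r = 0.9996), Atp6v0e (0.998), Nudt12 (0.997), Qdpr (0.996) and Cpt1b (0.996). Cpt1b, for example, had 56.8 and 82.2 CPM in BAT, 34.9 and 41.0 CPM in iWAT, and 24.2 and 30.7 CPM in eWAT. The 6 points share depots and depth, so these correlations describe the same libraries and carry no test.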

How the data were processed

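RNA was measured in 6 libraries of total RNA depleted of ribosomal RNA, 2 from each of 3 depots. Reads were aligned with STAR to mm9, per the submitters' processing notes; the versions, counting program, strandedness and multi-mapping rule were not given in the sources used here. A deposited table holds whole-number read counts per gene, not normalized, per the file headers. A second deposited table holds the authors' own log2 fold changes and adjusted p-values with a likelihood ratio score, used only where named; its column names give no direction, which was set by matching the signs to the fold changes computed here.

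From the counts, levels were computed as CPM on trimmed-mean (TMM) effective library sizes and, between genes, per kilobase of counted transcript. edgeR 4.0.16 (R 4.3.3) was fitted to all 6 libraries with depot as the only term after its default low-count filter. The SE is the absolute log2 difference divided by the square root of F. The fit was run on counts simulated with a common dispersion and independent libraries. There a bound was set on the median error of the log2 differences, and none on the SE or the intervals. The common biological coefficient of variation was 0.251. At these depths (2889038 to 4807449 counts) replicates of a depot differed beyond counting error (chi-square divided by its degrees of freedom, 16.0 to 19.8). Alternatives were other size factors, no filter, DESeq2 1.42.0, limma 3.58.1 voom, a replicate block, only the 4 libraries of a contrast, and leaving out each library. Correlations used edgeR's log2 CPM, in which 2 counts, scaled to library size, are added before the log. Those with Gpd2 were ranked over genes of mean CPM of at least 10. Figures were drawn with matplotlib 3.10.9.

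Besides the 9 genes, the rule for naming genes took from each related list and contrast up to 4 called genes by smallest adjusted p, or with none called the 1 with the smallest adjusted p, and the 5 genes most correlated with the gene of widest depot range; Slc25a10, Pparg, Srebf1, Agpat6, Pck2 and Cpt1b were given as examples after their values were seen. The 9 genes and the lists were chosen with earlier results of these data known.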

Additional observations from a re-analysis of the deposited data

How the results depend on the processing

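Over 13 alternatives, the 4 genes called between BAT and eWAT kept their direction. The number called of the 9 genes, 4 for BAT against eWAT, was 6 with the replicate block, 4 with the other size factors, no filter, DESeq2 and voom, 1 with only the 4 libraries of the contrast and 0 to 3 without each library. For BAT against iWAT, 0 in the report, it was 1 with RLE or upper-quartile factors or only 4 libraries, 3 with no filter or DESeq2, 4 with the replicate block, and 0 to 1 without each library. For iWAT against eWAT it stayed at 0. Related genes called, 5 for BAT against eWAT, numbered 13 with no filter, 9 with DESeq2, 19 with the block, 2 with only 4 libraries and 1 to 7 without each library. For BAT against iWAT, 1 in the report, the counts were 4, 2 and 12 (no filter, DESeq2, block) and 0 to 1 without each library; for iWAT against eWAT they were 2, 1 and 2. Over all tested genes, the 758 calls for BAT against eWAT became 1937, 1277 and 2780 under the same alternatives, 156 with only 4 libraries and 17 to 829 without each library. The 122 for BAT against iWAT became 780, 487 and 1225, 69 with limma voom and 0 to 94. The 0 for iWAT against eWAT became 557, 280 and 563, 1 with voom, 2 with only 4 libraries and 0 to 3. The replicate block treated equal library numbers as pairs. The labels give them no shared origin and there are only 2 per depot, so they were not taken as pairs; deviations from depot means nonetheless correlated at 0.412 to 0.556 over 11732 genes between same-numbered libraries of every 2 depots. With the block, the added calls were Lpin1 (0.75, edgeR adjusted p = 0.0407) and Dgat1 (0.56, adjusted p = 0.034) for BAT minus eWAT, and Pck1, Gyk, Gpd2 and Dgat1 (0.62, adjusted p = 0.0423) for BAT minus iWAT.

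Sign changes touched only genes that did not pass in that contrast, and their cause was not tested. Dgat2 for BAT minus iWAT, 0.01 in the report, was -0.00018 with upper-quartile factors and -0.015 with no filter. Agpat2 for iWAT minus eWAT, also 0.01, was -0.0085 with upper-quartile factors and -0.0066 with only 4 libraries. Without each library in turn, Dgat2 ran from -0.35 to 0.36 (BAT minus eWAT) and -0.14 to 0.17 (BAT minus iWAT), and for BAT minus iWAT Lpin1 ran from -0.051 to 1.03 and Gpd1 from -0.060 to 0.69, both negative only without BAT library 2. For iWAT minus eWAT the ranges were -0.19 to 0.24 for Agpat2, -0.038 to 0.54 for Lpin1, -0.33 to 0.24 for Dgat1, -0.36 to 0.35 for Dgat2, -0.02 to 0.58 for Gpd1 and -0.027 to 0.62 for Pck1. The tests rest on 2 libraries a depot and 3 residual degrees of freedom, and the effect of depth on them was not tested.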

Other observations

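Of the 9 genes, 6 (Agpat2, Lpin1, Dgat1, Dgat2, Gpd1 and Gpd2) were higher in the library numbered 2 than in the library numbered 1 in all 3 depots. The same held for 25.3% of all genes tested (2966 of 11732). Gyk and Pck1 were higher in library 2 in BAT and lower in it in iWAT and eWAT. The labels give the numbers no meaning beyond naming the libraries.

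Mogat1, which encodes a monoacylglycerol acyltransferase that bypasses the glycerol phosphate route, was among the least abundant isoforms. It had 22 and 30 counts in iWAT against 8 and 3 counts in eWAT, a log2 difference of 2.18 ± 0.53 for iWAT minus eWAT that did not pass (edgeR adjusted p = 0.205).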
